A study of Mus musculus with 4 samples.

Results

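The genes examined here are 10 genes of the spermatid head: Actl7a, Actl7b, Actl9, Actrt2, Capza3, Ccin, Cylc2, Spem1, Sun5 and Spata16. They were listed by symbol, and all 10 were found in the symbol column of a deposited table of 25265 genes. The table holds RNA-seq read counts of whole testis from C57BL/6 mice at postnatal day 56, with 2 libraries under the label control and 2 under Ythdf2-vKO. The series title describes a germ cell-specific mutation of Ythdf2, which encodes a reader of the RNA mark N6-methyladenosine (m6A) that promotes decay of marked RNA. The labels give no genotype for the control animals beyond that word, no Cre driver and no deleted exons, and do not tell whether the libraries came from separate animals. P-values therefore measure the spread between these libraries, which may be technical.

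As a round spermatid turns into a sperm, its nucleus condenses and elongates. The acrosome spreads over one pole, a skirt of microtubules called the manchette shapes the other, and the flagellum is anchored at the base of the head. A rigid protein shell, the perinuclear theca, forms between the acrosome and the nucleus and continues behind the acrosome as the calyx. Actin-related proteins, an actin-capping subunit, calicin and the cylicins are components of this shell, and other proteins hold the head to the tail or clear the cytoplasm from it. Loss of such genes in the mouse is known for misshapen, headless or bent-back sperm and for male infertility.

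Total gene counts ran from 24862518 to 29561182 per library. The vKO-labelled pair did not hold less of the targeted transcript: Ythdf2 had 51.0 and 53.5 CPM (counts scaled to a common library size) in the control pair, and 66.3 and 67.0 CPM in the vKO-labelled pair. The groups are therefore called by what their labels say. The log2 fold change of Ythdf2 was 0.35 (SE 0.13, adjusted p 0.238 by edgeR's quasi-likelihood test). Control replicate 2 stood apart in base composition, with a Spearman correlation of -0.40 across genes between its deviation from the 4-library mean and transcript GC content. The other libraries had correlations of 0.02 to 0.25. Genes of one library share its preparation, so these values are descriptions.

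Promoter sequences from RefSeq (GRCm38.p6) were matched for 8 of the 10 genes, all but Capza3 and Cylc2. The 4 shown are the 120 bases before the start of 3 actin-related genes and of Ccin. They are those of the 8 with an element marked as below within these 120 bases, so the choice rests on the element. Among them, the adjacent genes Actl7a and Actl7b carry the same element near the start and lay in opposite directions between the groups. A link between the element and the group differences was not tested. Capitals mark the cAMP response element TGACGTCA, the site of the spermatid regulator CREM, or the variant TGATGTCA, which reads TGACATCA on the other strand. Both are given 5′ to 3′ on the strand of the gene.
Actl7a, chr4:56743302-56743421, plus strand: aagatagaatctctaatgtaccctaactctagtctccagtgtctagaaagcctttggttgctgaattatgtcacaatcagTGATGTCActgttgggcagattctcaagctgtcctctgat
Actl7b, chr4:56741426-56741545, minus strand: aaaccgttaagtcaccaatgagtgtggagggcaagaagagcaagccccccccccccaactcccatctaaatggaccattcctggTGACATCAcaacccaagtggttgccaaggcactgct
Actl9, chr17:33432779-33432898, plus strand: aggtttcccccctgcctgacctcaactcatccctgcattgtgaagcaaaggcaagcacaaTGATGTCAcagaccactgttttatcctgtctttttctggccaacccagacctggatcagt
Ccin, chr4:43983384-43983503, plus strand: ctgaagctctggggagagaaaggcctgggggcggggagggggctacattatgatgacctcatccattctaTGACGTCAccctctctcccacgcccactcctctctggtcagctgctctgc

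Searched on both strands of the 250 bases before the start, the palindromic TGACGTCA was present in 1 of the 8 promoters, that of Ccin, and in 1.56% of 27025 promoters. The variant was present in 4 of the 8 and in 3.07% of all promoters. It began at position -40 in Actl7a, -36 in Actl7b, -60 in Actl9 and -217 in Sun5, counted back from the RefSeq start. The variant was added to the search after the sequences had been read, so its share is a description only. The TATA letters TATAAA were present in 1 of the 8, in Actl9, and in 12.9% of all promoters.

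The 10 genes are short and many are compact. Exon bases in GENCODE M21 (GRCm38) ran from 1041 in Spem1 to 2112 in Spata16, with a median of 1476 against 3243 for all genes tested. Single-exon models made up 5 of the 10 (Actl7a, Actl7b, Actl9, Actrt2 and Ccin), against 9.64% of all genes tested. Chromosome 4 holds 5 of them, namely Ccin (ENSMUSG00000070999, 43983483 to 43985423), Cylc2 (ENSMUSG00000039555, 51216678 to 51230272), Actl7b (ENSMUSG00000070980, 56740005 to 56741443), Actl7a (ENSMUSG00000070979, 56743413 to 56744925) and Actrt2 (ENSMUSG00000051276, 154666433 to 154667867). Actl7b lies on the minus strand and Actl7a on the plus strand, 1969 bases apart and transcribed away from each other. Actl9 lies on chromosome 17 (ENSMUSG00000092519, 33432896 to 33434268), Capza3 on chromosome 6 (ENSMUSG00000041791, 140041252 to 140042778), Spem1 on chromosome 11 (ENSMUSG00000041165, 69820876 to 69822180), Sun5 on chromosome 2 (ENSMUSG00000027480, 153856188 to 153871084) and Spata16 on chromosome 3 (ENSMUSG00000039335, 26637620 to 26983212).

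A pair of overlaps bears on the counts. Gm26657 shares 1308 exon bases with Actl7b on the opposite strand, yet it had 17, 13, 15 and 8 counts where Actl7b had 12881, 13450, 16209 and 15421. The sense and antisense counts were thus far apart at this locus, although the use of strand in counting is not stated. Capza3 shares 107 exon bases with Plcz1 on the opposite strand, and how reads there were counted is likewise not stated. A search of M21 transcripts with megablast found no other gene at least 90% identical to one of the 10 over 200 bases or more.

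All 10 transcripts were abundant in every library. Levels per length, as CPM per kilobase of exon averaged over the 4 libraries, ran from 73.5 for Sun5 to 436 for Spem1, or from the 95.4th to the 99.7th percentile of genes tested. In descending order the levels per length were Spem1 436 ± 52.7, Actl7b 378 ± 46.9, Actrt2 336 ± 43.8, Actl9 316 ± 37.1 and Actl7a 242 ± 25.4 CPM per kilobase (SD over the 4 libraries). They continued with Spata16 at 189 ± 26.5, Cylc2 at 167 ± 31.6, Capza3 at 161 ± 18.6, Ccin at 133 ± 16.2 and Sun5 at 73.5 ± 3.39 CPM per kilobase. Ranges over the libraries were apart for only 2 neighbouring pairs in this order, Actl9 above Actl7a and Ccin above Sun5. The order of Actl7b against Actrt2, and of Cylc2 against Capza3, held in only 2 of 4 libraries, and the split followed the group labels. Actl7b lay below Actrt2 in the control pair (383 and 312 against 397 and 333). In the vKO-labelled pair it lay above (421 and 397 against 320 and 294). Cylc2 lay above Capza3 in the control pair (176 and 202 against 173 and 171). In the vKO-labelled pair it lay below (126 and 166 against 133 and 167).

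**Figure D1:**
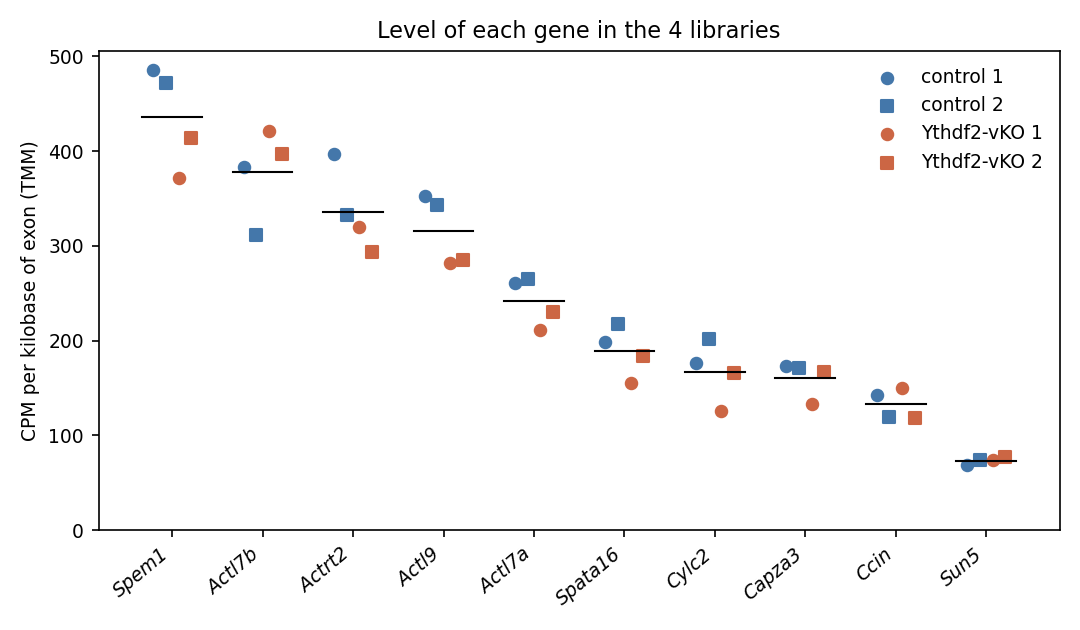
Level of each gene as CPM per kilobase of exon (vertical axis, TMM scaling) in the 4 libraries, with a line at the mean of the 4. Circles and squares are replicates 1 and 2, blue control and orange labelled vKO. Spem1 is highest at 436 and Sun5 lowest at 73.5 CPM per kilobase.

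The comparison of the groups asks whether messages of the spermatid head differ in testes labelled Ythdf2-vKO. None of the 10 genes was called: their adjusted p ran from 0.264 to 0.939, against 83 calls (0.393%) over the 21132 genes tested by edgeR's quasi-likelihood test at an adjusted p under 0.05. In the authors' deposited table their adjusted p ran from 0.298 to 0.972, where 1.32% of genes with an adjusted p lay under 0.05. At an unadjusted p under 0.05, 4 of the 10 (Actl9, Cylc2, Spem1 and Spata16) were lower in the libraries labelled vKO, against 6.47% of all genes, and 0 were higher, against 7.65%. Calls appeared with a control library left out, for Actl7b (adjusted p 0.0155), Cylc2 (0.00152) and Spata16 (0.0196) without control replicate 1, and for Actrt2 (0.0229) without control replicate 2, all by the same edgeR test. In the same fits the share called over all genes rose from 0.393% to 6.82% without control replicate 1 and 4.93% without control replicate 2. A p that misses the threshold does not show that levels were the same.

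The directions were uneven. In 7 of the 10 genes both libraries labelled vKO lay below both control libraries, against 22.6% of all genes tested, and in 2 (Actl7b and Sun5) both lay above, against 22.7%. The median log2 fold change of the 10 was -0.25, against 0.00 over all genes. Abundant genes in general lay lower more often, in a comparison added after the data were seen. Among the 2812 tested genes with at least the mean CPM of Sun5, the median was -0.09. Of them, 42.7% had both libraries labelled vKO below both control libraries and 8.21% had both above. At an unadjusted p under 0.05, 15.1% were lower and 2.28% higher. That cut, 90.6 CPM, is the lowest mean of the 10 genes. The others ran from 246 to 544 CPM, so the comparison is not matched in level. Summed over the 10 genes, the level was 3890 and 3722 CPM in the control pair, and 3316 and 3453 CPM in the vKO-labelled pair, or 0.366% and 0.377% of all counts against 0.338% and 0.355%. Replicate 1 labelled vKO was the lowest library for 6 of the 10 genes, and without it 0 of the 10 reached an unadjusted p under 0.05, against 2.73% of all genes lower and 3.62% higher, and the median was -0.19. With scaling by library totals alone, 1 of the 10 was lower and 1 higher at an unadjusted p under 0.05, against 3.81% and 10.3% of all genes. That scaling moved the median of all genes to 0.07 and the median of the 10 to -0.18. In whole testis, fewer spermatids and less RNA per spermatid cannot be told apart.

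**Figure D2:**
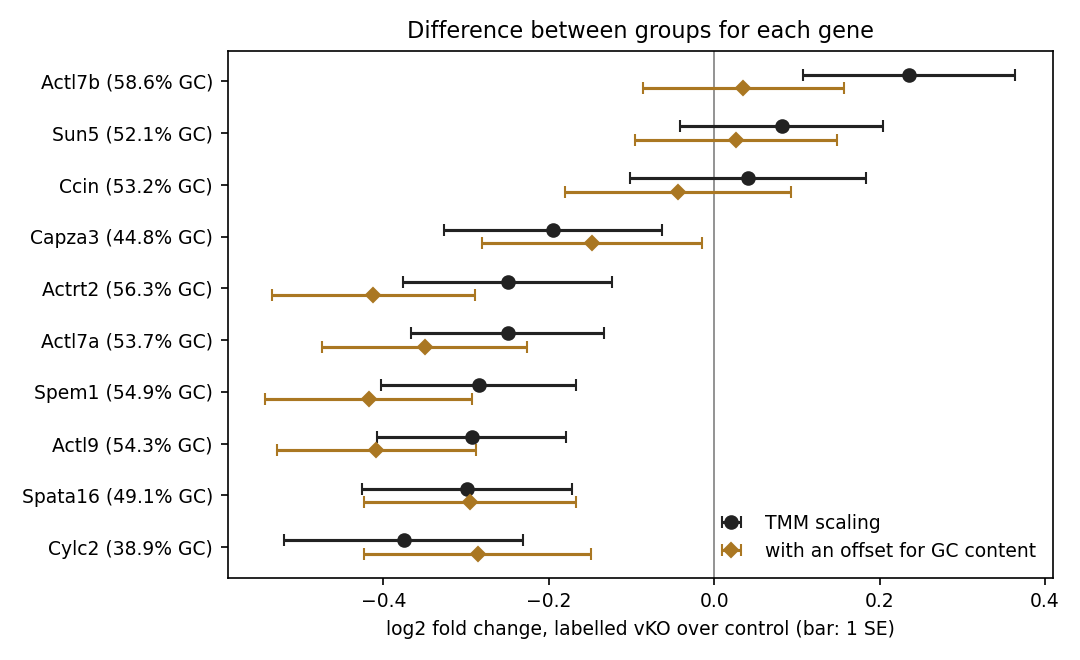
Log2 fold change of each gene, libraries labelled vKO over control (horizontal axis), with bars of 1 SE, from the edgeR fit with TMM scaling (black circles) and with an offset for transcript GC content (brown diamonds). The GC content of each transcript stands beside its name, from 38.9% in Cylc2 to 58.6% in Actl7b, and Actl7b moves from 0.24 to 0.04 with the offset.

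Among the actin-related genes, Actl7a encodes a testis actin-like protein of the subacrosomal theca that links the acrosome to the nucleus. It had 395 and 401 CPM in the control pair, and 320 and 349 CPM in the vKO-labelled pair. The control libraries lay close together and above both others, and the log2 fold change was -0.25 (SE 0.12, adjusted p 0.361). Its neighbour Actl7b, an actin-like gene that male mice need for spermatid development, lay in the other direction. Actl7b had 551 and 449 CPM in the control pair, and 606 and 572 CPM in the vKO-labelled pair. The groups did not overlap, but the control libraries were further apart than the nearest libraries of the 2 groups, and the log2 fold change was 0.24 (SE 0.13, adjusted p 0.446), or 0.10 without control replicate 2 and 0.38 without control replicate 1.

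The adjacent pair can be compared within a library, free of any scaling between libraries. Counts of Actl7b over those of Actl7a were 1.40 and 1.12 in the control pair, then 1.89 and 1.64 in the vKO-labelled pair. Both ratios in the libraries labelled vKO lay above both control ratios. The difference of mean log2 ratios was 0.49, a ratio 1.41-fold higher, with SDs of 0.23 in control and 0.15 in the libraries labelled vKO (n = 2 each). An exact two-sided permutation test gave p = 0.333, the smallest value that 2 libraries against 2 allow. The pair was singled out after its values were seen. Of the 2 transcripts Actl7b has the higher GC content, at 58.6% against 53.7%, and with the GC offset the difference in log2 fold change between the genes was 0.39, against 0.49 without it. With each library left out in turn it ran from 0.33 to 0.65. Its sign could not be expected to change there, as both ratios labelled vKO lay above both control ratios.

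**Figure D3:**
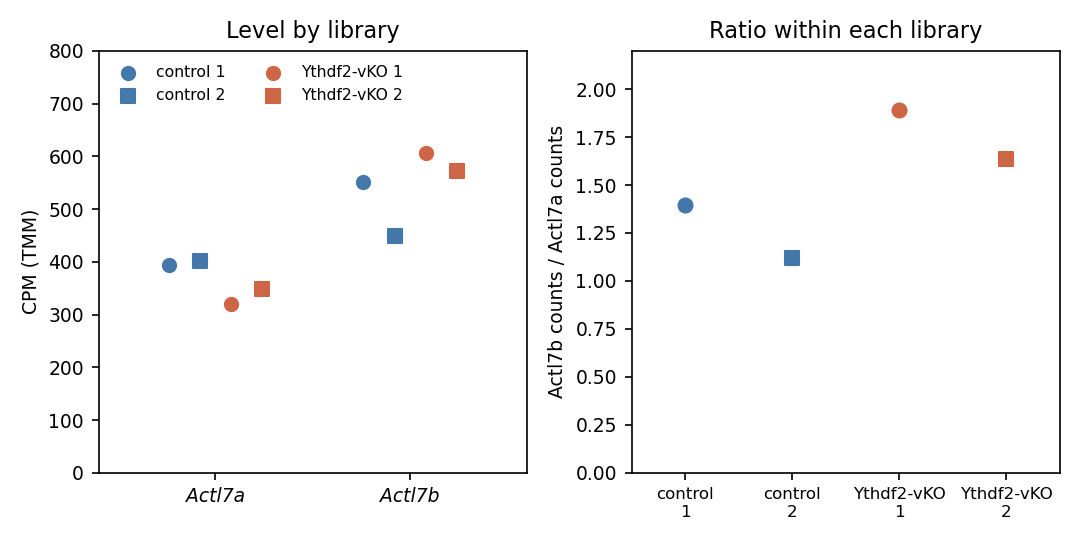
Left, CPM (vertical axis, TMM scaling) of Actl7a and Actl7b in each library, with circles and squares for replicates 1 and 2, blue for control and orange for labelled vKO. Right, counts of Actl7b divided by counts of Actl7a in the same library, at 1.40 and 1.12 in the control pair, then 1.89 and 1.64 in the vKO-labelled pair.

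Actl9, an actin-like gene whose product works with that of Actl7a at the theca, had 484 and 471 CPM in the control pair, and 388 and 391 CPM in the vKO-labelled pair. Replicates lay within a few CPM of their group mean, and the groups were well apart. The means were 477 ± 9.32 and 389 ± 2.46 CPM (SD, n = 2), so that the libraries labelled vKO held 81.6% of the control level. The log2 fold change was -0.29 (SE 0.11, unadjusted p 0.0236, adjusted p 0.269). Actrt2, an actin-related protein of the calyx, had 570 and 478 CPM in the control pair, and 459 and 422 CPM in the vKO-labelled pair. Here control replicate 1 stood above the other 3 libraries, and the log2 fold change was -0.25 (SE 0.13, adjusted p 0.407). The log2 fold change of Actrt2 was -0.12 without control replicate 1 and -0.37 without control replicate 2.

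Among the structural genes of the theca and calyx, Capza3 encodes the testis form of the alpha subunit of the protein that caps the barbed ends of actin filaments. It had 264 and 261 CPM in the control pair, and 204 and 255 CPM in the vKO-labelled pair. Replicate 1 labelled vKO was the low one and replicate 2 lay just under control, and the log2 fold change was -0.20 (SE 0.13, adjusted p 0.557), or -0.04 without replicate 1 labelled vKO and -0.37 without replicate 2 labelled vKO. Cylc2 encodes cylicin, a basic protein of the calyx. It had 340 and 390 CPM in the control pair, and 243 and 320 CPM in the vKO-labelled pair, the log2 fold change furthest from 0 among the 10 genes and also a wide spread within each group. The log2 fold change of Cylc2 was -0.38 (SE 0.14, unadjusted p 0.0225, adjusted p 0.264), and -0.19 without replicate 1 labelled vKO or -0.59 without replicate 2 labelled vKO.

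Ccin encodes calicin, a kelch-repeat protein of the calyx. It had 277 and 231 CPM in the control pair, and 292 and 231 CPM in the vKO-labelled pair. It was the 1 gene of the 10 whose groups overlapped: replicate 1 was the higher library in both groups, and the replicate 2 values were almost equal. The log2 fold change of Ccin was 0.04 (SE 0.14, adjusted p 0.939), and it was -0.04 with the GC offset and from -0.14 to 0.20 with each library left out in turn.

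The last genes act in cytoplasm removal, head-to-tail attachment and the acrosome. Spem1 encodes a spermatid protein needed to strip the cytoplasm from the head and straighten it on the tail. It had 505 and 491 CPM in the control pair, and 387 and 431 CPM in the vKO-labelled pair. The groups were apart by more than the spread within either, with means of 498 ± 9.70 and 409 ± 31.2 CPM (SD, n = 2), and the log2 fold change was -0.28 (SE 0.12, unadjusted p 0.0315, adjusted p 0.301). Sun5, a nuclear envelope protein that fastens the tail to the head, had 85.2 and 90.9 CPM in the control pair, and 91.0 and 95.4 CPM in the vKO-labelled pair. The lower library labelled vKO and the higher control library were almost equal, and the log2 fold change of Sun5 was 0.08 (SE 0.12, adjusted p 0.828), or 0.03 without control replicate 1 and 0.13 without control replicate 2. Spata16, a Golgi protein of the forming acrosome, had 420 and 460 CPM in the control pair, and 327 and 388 CPM in the vKO-labelled pair. The groups did not overlap, and the log2 fold change of Spata16 was -0.30 (SE 0.13, unadjusted p 0.0347, adjusted p 0.311), or -0.18 without replicate 1 labelled vKO.

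GC content varied beside these differences. The log2 fold change of all genes at 1 CPM or more correlated with GC content at 0.29 (Spearman, across genes), and the 10 transcripts ran from 38.9% GC in Cylc2 to 58.6% in Actl7b, with a median of 53.5% against 48.9% for all genes tested. With an offset for GC content fitted over all genes, the log2 fold change was -0.35 for Actl7a, -0.41 for Actl9, -0.41 for Actrt2 and -0.42 for Spem1, each further from 0 than without it. It was nearer to 0 for Cylc2 at -0.29, Capza3 at -0.15, Sun5 at 0.03 and Actl7b at 0.04, and nearly the same for Spata16 at -0.30. With the offset 5 of the 10 genes (Actl7a, Actl9, Actrt2, Spem1 and Spata16) were lower at an unadjusted p under 0.05, against 7.46% of all genes, and 0 were higher, against 6.16%. None of the 10 was called, with a smallest adjusted p of 0.150, and the median was -0.29. The letters GGACT, a common context of m6A, occurred 1.39 times per kilobase of the longest transcript in the median of the 10 genes, from 0.609 in Cylc2 to 2.91 in Actl9, against a median of 1.02 over all genes tested. The m6A mark itself was not analysed here.

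Other genes of head formation were read from 3 lists of 61 genes, all of which were tested, and 0 of the 61 were called by edgeR with all 4 libraries or by a DESeq2 Wald test. Those called without control replicate 1 included Pfn4, Spef2, Tsga10 and Zpbp2, which were lower, and Ubqln1, which was higher, beside the 6.82% of all genes given above. Without control replicate 2, 3 of the 61 were called (Pmfbp1, Tent5c and Zpbp2, all lower), beside 4.93% of all genes. In the list of theca and acrosome attachment genes, 4 of 21 were lower and 0 higher at an unadjusted p under 0.05, against 6.47% and 7.65% of all genes tested. Among the 2812 abundant genes described above, 15.1% were lower and 2.28% higher, with a median of -0.09. Genes of the 3 lists were not held to the cut of 90.6 CPM, so this comparison is not matched in level. Pick1, for example, averaged 29.8 CPM in the control pair and 32.9 CPM in the vKO-labelled pair. That theca list had a median log2 fold change of -0.10. Its median was -0.04 without control replicate 1, -0.13 without control replicate 2 and -0.03 with library totals alone. Its lowest were Zpbp2, an acrosomal matrix protein, at -0.39 (SE 0.12, adjusted p 0.178), with 295 and 293 CPM in the control pair, and 214 and 235 CPM in the vKO-labelled pair, and Plcz1, the sperm factor that activates the egg, at -0.31 (SE 0.13, adjusted p 0.298). Its highest were Spaca1, an acrosomal membrane protein, at 0.18 (SE 0.12, adjusted p 0.553) and Pick1, a protein of vesicle traffic to the acrosome, at 0.15 (SE 0.14, adjusted p 0.708).

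In the manchette list, 4 of 21 genes were lower and 0 higher at an unadjusted p under 0.05. The shares were 6.47% and 7.65% of all genes tested, and 15.1% and 2.28% of the 2812 abundant genes, again not matched in level. Kifc1 of this list averaged 10.6 CPM in the control pair and 11.9 CPM in the vKO-labelled pair. The manchette median was -0.08. That median was -0.05 without control replicate 1, -0.15 without control replicate 2 and -0.02 with library totals alone. Spef2, a flagellar and manchette transport protein, was lowest at -0.47 (SE 0.13, adjusted p 0.135), with 80.1 and 87.3 CPM in the control pair, and 58.7 and 62.3 CPM in the vKO-labelled pair. Hook1, a linker of the manchette, followed at -0.30 (SE 0.11, adjusted p 0.258). The highest were Kifc1 at 0.17 (SE 0.25) and Ubqln1 at 0.17 (SE 0.15), and their groups overlapped. In the list of the LINC complex, which spans the nuclear envelope, and of head-to-tail coupling, 2 of 19 were lower and 1 higher at an unadjusted p under 0.05. These counts stand beside the same shares of all and of abundant genes. The median was -0.12, or -0.06 without control replicate 1, -0.11 without control replicate 2 and -0.05 with library totals alone. Pmfbp1, a coupling protein that works with Sun5, was at -0.35 (SE 0.12, adjusted p 0.229) with 777 and 667 CPM in the control pair, and 568 and 569 CPM in the vKO-labelled pair. Tsga10 was at -0.33 (SE 0.12, adjusted p 0.245). Sun2, a LINC protein of somatic cells as well, was at 0.33 (SE 0.14, adjusted p 0.328) and Syne2 at 0.09 (SE 0.16, adjusted p 0.870).

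**Figure D4:**
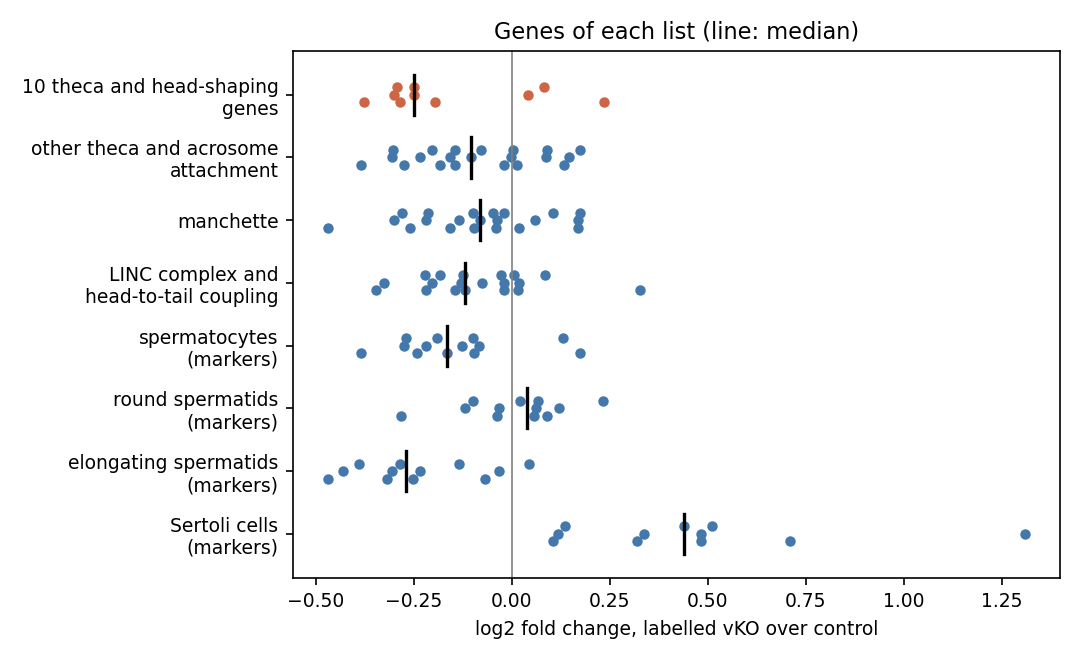
Log2 fold change, libraries labelled vKO over control (horizontal axis), of every tested gene in the 10 head genes, the 3 lists of other head-formation genes and 4 marker lists. Each point is a gene and each line a median, at -0.25 for the 10 genes, -0.27 for elongating spermatid markers, 0.04 for round spermatid markers and 0.44 for Sertoli cell markers.

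Cell type markers were read beside these values. Of 12 elongating spermatid markers, 11 had a negative log2 fold change, against 49.7% of all genes tested. Of the 2812 abundant genes described above, which were not matched in level to the markers, 69.9% did. At an unadjusted p under 0.05, 6 of the 12 were lower, against 6.47% of all genes and 15.1% of the abundant genes. The median was -0.27, with a summed level of 9872 to 12286 CPM in control and 9624 to 9636 CPM in the libraries labelled vKO. The 12286 CPM were those of control replicate 1, and control replicate 2 lay much nearer to the vKO-labelled pair. Median log2 deviations of these markers from the 4-library mean were 0.27 and -0.01 in control replicates 1 and 2. They were -0.15 and -0.11 in the vKO-labelled pair. The weight of control replicate 1 in the median of -0.27 was not tested. Of 12 round spermatid markers, 5 had a negative value and 0 reached an unadjusted p under 0.05 in either direction. The median was 0.04, with sums of 2046 to 2288 against 2048 to 2116 CPM. Of 13 spermatocyte markers, 11 had a negative value, against 49.7% of all genes tested and 69.9% of the abundant genes. The spermatocyte median was -0.16, with sums of 2157 to 2327 against 2023 to 2107 CPM. All 11 Sertoli cell markers had a positive value, against 50.3% of all genes tested, and 8 were higher at an unadjusted p under 0.05, against 7.65%. Of the 11, 1, Wt1, was called (adjusted p 0.0418 by edgeR), against 0.393% of all genes. The median was 0.44, with sums of 944 to 1012 against 1181 to 1332 CPM. All 12 spermatogonial and 8 Leydig cell markers were tested, with medians of 0.22 and 0.38. Of the 8 Leydig cell markers, 4 were higher at an unadjusted p under 0.05, against 7.65% of all genes. No tested marker of any list was at 0 in a library. The part of these shifts in the differences of the 10 genes was not tested.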

How the data were processed

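Trizol RNA of testis was depleted of ribosomal RNA and made into directional libraries, per the labels' protocols. HISAT2 2.1.0 and HTSeq 0.6.1p1 are named per the submitters' processing notes, with no settings. The build is not given in the sources used here. The authors deposited raw read counts per gene and library, their mean normalized count (a signal of counts over size factors), log2 fold changes, their standard errors and p-values, with DESeq2 column names per the file headers. A tab inside the first header name was allowed for. The deposited mean recomputed from the counts differed by at most 4.9e-10 in relative terms. The smallest gene total was 10 counts.

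Counts were tested with edgeR 4.0.16 (R 4.3.3) using TMM scaling, filterByExpr, genotype as the sole term of a robust quasi-likelihood fit on all 4 libraries, a prior count of 0.125 and Benjamini-Hochberg adjustment over 21132 genes, called at an adjusted p under 0.05. The script was tested on simulated data. SE is the absolute log2 fold change over the square root of F. CPM use TMM scaling. Lengths, GC content of the longest transcript and coordinates come from GENCODE M21 by gene identifier (25261 of 25265 genes found), and promoters from RefSeq by symbol. Named genes were the 10, Ythdf2, overlapping genes, called genes of 3 head-formation lists, and the 2 highest and 2 lowest of each list at 1 CPM or more. Cell types were read from 11 marker lists of 97 genes: those not described in the report (myoid cells, macrophages, endothelial cells, erythrocytes and epididymis) had median log2 fold changes of 0.02, 0.09, 0.37, 0.76 and -0.48, the last from 1 gene tested. The 10 genes and all lists were chosen with earlier results of these data known. Alternatives covered scaling, filters, robust estimation, DESeq2 1.42.0, an offset for GC content, the replicate number as a block, the prior count and leaving out each library. A result for 1 gene of these lists is not reported here.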

Additional observations from a re-analysis of the deposited data

How the results depend on the processing

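Across 14 alternatives, Actl7a, Actl9, Actrt2, Capza3, Cylc2, Spem1 and Spata16 had negative log2 fold changes in each and Actl7b and Sun5 positive ones. Ccin was negative with the GC offset (-0.0433), with that offset plus the replicate block (-0.0476), and over the leave-one-out fits it ran from -0.138 to 0.198. Over all genes, 59 were called higher and 24 lower. Library totals alone gave 181 and 37, a DESeq2 Wald test 137 and 80, a fit without robust estimation 50 and 15, and the GC offset 76 and 66. Higher genes were 71.1% of the calls, against 83.0% when totals alone set the scale and 53.5% with the GC offset. Both groups use replicate numbers 1 and 2, whose meaning is not given, and deviations of same-numbered libraries correlated at 0.0919 across genes, so they were not taken as pairs. With the replicate block 627 genes were called higher and 390 lower, and 1 of the 10 genes, Cylc2 (-0.385, adjusted p 0.0432), with Spef2 and Zpbp2 of the 61 list genes. Adding the GC offset to the replicate block gave 281 and 341 calls, and none of the 10 genes, with Cep131 and Spef2 of the 61. Leaving out 1 library gave from 30 to 1048 genes higher, from 5 to 523 lower, and from 0 to 3 of the 10 genes. Those called were Actl7b (log2 fold change 0.384), Cylc2 (-0.476) and Spata16 (-0.371) without control replicate 1, and Actrt2 (-0.371) without control replicate 2. Over these 4 fits Actl7b ran from 0.0958 to 0.384, Cylc2 from -0.588 to -0.191, Spata16 from -0.428 to -0.182 and Actrt2 from -0.371 to -0.124. Such fits assume that the lone library varies like the other group. The median of the 10 genes ran from -0.31 to -0.18. The causes were not tested. With 2 libraries per group and counts of 1991 to 16209 for these genes, spread between libraries, not counting error, sets the precision.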
